A study of Mus musculus with 6 samples.

Results

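Cadherins and protocadherins are transmembrane proteins that join neighbouring cells through calcium-dependent repeats, and the genes of this superfamily were examined in 3 lines derived from NIH3T3, an immortalised mouse fibroblast line. The members were chosen by name alone, as every non-control probe whose gene name on the array was Cdh followed by a number, began with Pcdh, or was a Fat, Dchs or Celsr gene. This gave 75 genes on 126 probes, out of 50090 gene names on 61307 probes. A gene was read on its brightest probe, the one with the highest mean signal over the 6 arrays, and its other probes are given where they differ.

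The GFP line carried a retrovirus for green fluorescent protein and served as control. LT7 and ST7 carried a retrovirus for SIRT7, a NAD-dependent deacylase of the nucleolus, fused to GFP. Stable lines were expanded from colonies after dilution plating. Long cells (LT7) and small cells (ST7) were then taken with cloning cylinders, and single-cell clones were isolated from them. Each SIRT7 line is thus clonal, and what belongs to SIRT7 cannot be told apart from what belongs to the clone. All lines were grown in DMEM with serum. Total RNA of 2 replicates per line, taken at different passages, was labelled with Cy3 and hybridized to single-colour Agilent arrays. With so few arrays the p-values measure the spread between passages of 1 line.

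The arrays labelled ST7 stood apart from the rest. Of all probes, 53.5 to 57.5% were well above background in GFP, as marked by the scanner software, against 47.4 to 47.5% in LT7 and 25.5 to 26.4% in ST7. Sirt7 itself gave processed signals of 3125 and 2480 in GFP and 3633 and 2782 in LT7, but 2.85 and 3.28 in ST7, which was not well above background, and a second probe behaved alike. LT7 was not above GFP beyond the spread either (log2 change 0.29, adjusted p = 0.471 by limma). The Sirt7 probes thus did not show the overexpression named in the labels of LT7 and ST7. Whether these probes lie in the introduced sequence is not given in the sources used here, so they cannot show whether it was expressed. Of the coding names detected in GFP and LT7, 58.5% were likewise above background on no ST7 array. ST7 and every direction drawn from it below refer to the arrays so labelled.

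Classical cadherins bind through their outermost repeat to the same cadherin on the next cell, and through catenins to actin. Protocadherins lack the catenin-binding tail, and those of the alpha, beta and gamma clusters are known for giving neurons a surface identity. The giant cadherins Fat4 and Dchs1 bind each other across cell borders, and the Celsr proteins orient cells within a sheet. Mesenchymal cells such as fibroblasts typically carry N-cadherin (Cdh2) and cadherin 11, whereas epithelia carry E-cadherin (Cdh1).

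Cadherin repeats hold calcium through short stretches rich in acidic residues, and a few of the probes carry codons for such a stretch. The codons for Asp, any residue, Asn, Asp, searched on the printed strand, occurred in 4 of the 126 member probes (3.17%) and in 101 of all 61307 probes (0.165%). The designed 60-base probes below are examples from genes with large differences between lines, and not each is the brightest of its gene. Capitals mark these codons where a probe holds them, which is more often here than among all member probes. The first probe for Cdh4 gave signal in ST7, and the second gave none on any array.
Cdh11: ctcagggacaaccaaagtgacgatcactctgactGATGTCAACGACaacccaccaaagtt
Pcdh19 (second probe): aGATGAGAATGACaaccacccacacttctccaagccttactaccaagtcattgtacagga
Cdh4 (first probe): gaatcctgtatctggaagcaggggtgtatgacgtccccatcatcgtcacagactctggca
Cdh4 (second probe): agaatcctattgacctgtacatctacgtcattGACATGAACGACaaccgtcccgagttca
Pcdh9: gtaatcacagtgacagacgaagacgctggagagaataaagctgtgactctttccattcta

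Of the 40 members detected in GFP, 24 belonged to the protocadherin clusters, and 3 of the clustered genes were detected in ST7. A gene was called detected in a line when its probe was well above background on both arrays, a call that needs no scaling between arrays. In GFP 40 of the 75 genes were detected (53.3%), in LT7 36 (48.0%) and in ST7 14 (18.7%), where the shares over coding gene names, those with an NM_ or XM_ accession, were 57.3, 50.9 and 22.6%. The lines shared 10 detected genes, 26 genes were above background on no array, and 5 were so on some arrays but on both arrays of no line. Among all 26147 coding names the same counts were 4765, 8715 and 1878. The dimmest member spot well above background read 14.4 to 23.3 on the GFP and LT7 arrays and 15.0 to 17.8 on the ST7 arrays, and the brightest spot short of it 12.8 to 20.9 and 13.4 to 15.3.

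**Figure D1:**
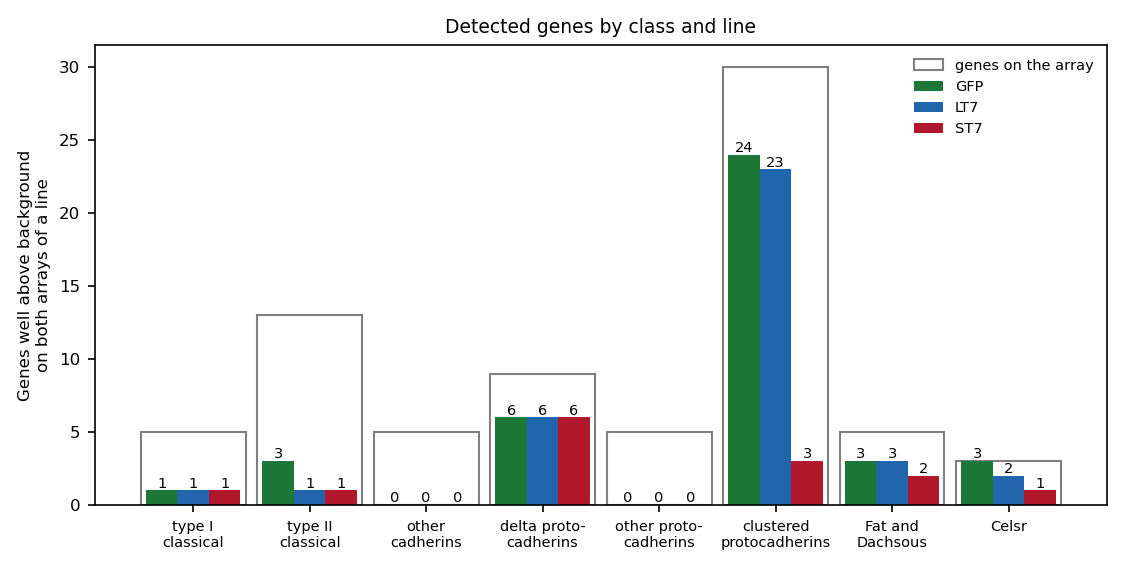
Number of genes detected, that is well above background, on both arrays of a line (coloured bars) among the genes of each class on the array (grey outline). Clustered protocadherins had 24 detected genes in GFP, 23 in LT7 and 3 in ST7, while the delta protocadherins had 6 in each line.

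The clustered protocadherins made up 30 of the members, with 24 detected in GFP, 23 in LT7 and 3 in ST7. Of the 9 delta protocadherins, single genes with long conserved tails, 6 were detected in each line, although not the same 6. The 5 type I classical cadherins had 1 detected gene in each line, and the 13 type II cadherins had 3, 1 and 1 in GFP, LT7 and ST7. Cdh11 is missing from the LT7 count because 1 spot was an outlier there, although its other spot and probes were above background. The Fat and Dachsous genes numbered 3, 3 and 2 of 5, and the Celsr genes 3, 2 and 1 of 3. None of the 5 other cadherins (Cdh13, Cdh16, Cdh17, Cdh23, Cdh26) and none of the 5 other protocadherins (Pcdh12, Pcdh15, Pcdh20, Pcdh21, Pcdh24) was detected on both arrays of a line.

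Of the 36 genes detected in both GFP and LT7, 25 were well above background on no ST7 array, or 69.4%, where the share over coding names was 58.5%. Among the clustered genes it was 19 of 23. In the other direction, 4 members (Cdh4, Cdh24, Pcdh9 and Pcdh17) were detected in ST7 and on no GFP or LT7 array, against 1.25% of coding names. Between GFP and LT7, Cdh22 and Pcdhb10 were detected in GFP and on no LT7 array (3.61% of coding names), and 0 members the other way round (0.107%). The lowest signal of any probe called well above background was 13.5 on both GFP arrays, but 20.0 and 22.3 on the LT7 arrays. A dim gene such as Pcdhb10 could thus pass in GFP and fail in LT7 at the same signal. In bulk RNA, fewer cells that express a gene and less of its RNA per cell cannot be told apart.

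For the comparisons of level, log2 signals were shifted by the 75th percentile of each array, the normalization the study used, and tested with limma on all 6 arrays with adjustment over all probes. That percentile was 384 and 323 in GFP, 341 and 317 in LT7, but 16.3 and 17.1 in ST7. The shift therefore moved the middle of all probes in ST7, as a log2 difference from GFP, from -0.68 to 3.72, where quantile normalization put it at 0.37, a percentile over the 11081 probes detected on all arrays at 1.78 and scaling on 6 spike-in RNAs at -0.51. For LT7 the same value was 0.07 unscaled, 0.17 once shifted and -1.92 by the spike-in RNAs, which were brighter on LT7 replicate 1 alone (mean log2 13.39 against 9.26 to 9.54). LT7 replicate 1 was also the only array of the second scan. Each direction in ST7 below is stated with the scalings at which it turned.

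No member rose in LT7 past an adjusted p of 0.05 by limma, where 0.0841% of 26147 coding names were called. At an unadjusted p under 0.05, 22 members were higher (22.2% of coding names), of which 16 were above background on no array of either line. The fold rule of the study, at least 0.8 on the log2 scale in each replicate and a mean over 1, took 6 members (3.45% of coding names), of which Fat4 and Pcdhb19 were detected in LT7. One gene fell, Cdh22, where the background was 0.241%. Cdh22 encodes a type II cadherin known from pituitary and brain. Its signal was 200 and 172 in GFP and 4.58 and 4.59 in LT7, so the lines did not overlap, and it was not well above background in LT7. It was at least 8.19-fold lower in LT7, with a fitted log2 change of -5.24 ± 0.42 (SE, 2 arrays each, adjusted p = 0.0389).

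The direction of the Cdh22 change was the same in every alternative, but its call rested on a narrow margin. The adjusted p was 0.270 without GFP replicate 1, 0.126 without GFP replicate 2 and 0.0686 without LT7 replicate 1, which is the value within the first scan, and under other scalings it was 0.0571 unscaled, 0.718 with quantile normalization and 0.0917 with the spike-in RNAs. In ST7 the gene was at background too, with signals of 7.12 and 3.22.

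The LT7 arrays read most detected members somewhat higher than GFP. Of the 36 genes detected in both lines, 21 had both LT7 arrays above both GFP arrays after the shift, 15 overlapped and 0 lay below, where over 13236 coding names detected in both lines 28.2% lay above and 15.6% below. The median log2 change was 0.36 over these 36 genes and 0.08 over those coding names. None of these members passed the test.

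Fat4, a giant cadherin of the Dachsous pathway, read 694 and 628 in GFP and 1845 and 1200 in LT7. Its second probe read 687 and 641, then 1309 and 1278, so that both probes placed LT7 above GFP without overlap. The log2 change was 1.27 ± 0.25 (SE, adjusted p = 0.102 by limma), and it was negative (-0.82) with the spike-in scaling. Pcdh10 read 27.6 and 23.0 in GFP against 47.4 and 46.3 in LT7 without overlap, a log2 change of 0.99 ± 0.19 that missed the threshold (adjusted p = 0.102) and was -1.10 with the spike-in scaling. Pcdh19 read 3221 and 3154 in GFP and 6857 and 5059 in LT7 (0.98 ± 0.54, adjusted p = 0.337), and -1.11 with the spike-in scaling. Its second probe overlapped between the lines, with 147 and 122 against 112 and 257.

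**Figure D2:**
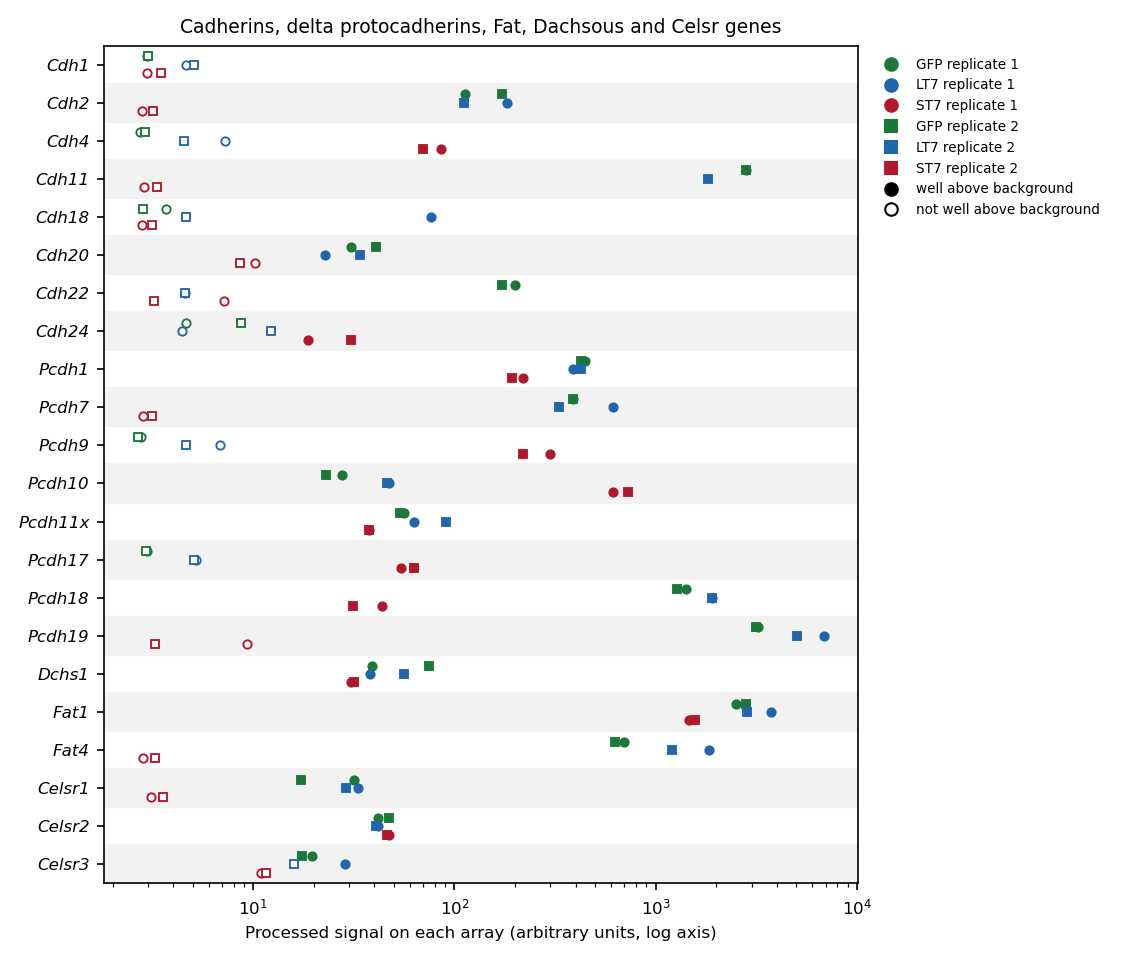
Processed signal of each array (log axis) for the cadherins, delta protocadherins, Fat, Dachsous and Celsr genes detected in at least 1 line, with Cdh1 and Cdh18 added. Filled marks are well above background and open marks are not. Cdh4, Cdh24, Pcdh9 and Pcdh17 are filled in ST7 alone. Cdh11, Pcdh19, Fat4, Pcdh7 and Cdh2 are filled in GFP and LT7 and open near 3 in ST7, apart from Pcdh19 replicate 1 at 9.33. In LT7, Cdh11 has a mark for replicate 2 only, as the spot of replicate 1 was an outlier.

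In ST7 some members were lower under all 5 scalings, a few were higher under all, and for others the direction depended on the scaling. After the percentile shift 53 of the 75 were called higher than GFP and 15 lower, where 63.4% and 28.6% of coding names were so called. Of the 53, 27 were above background in neither line, and 12 were themselves detected in ST7 (18.0% of coding names). Under all 5 scalings 4 of these were higher (Cdh4, Pcdh9, Pcdh10 and Pcdh17), against 0.746% of coding names, and 14 were lower, against 27.6%. Against LT7, 50 members were higher and 16 lower (63.4% and 28.7% of coding names), and under all 5 scalings the same 4 were higher (1.86%) and 9 lower (21.5%). Both comparisons share the ST7 arrays.

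Pcdh9, a delta protocadherin of neural tissue, showed the widest contrast among them. It read 2.75 and 2.68 in GFP and 6.79 and 4.60 in LT7, none above background, and 298 and 219 in ST7. After the shift its ST7 level was at least 399-fold that of GFP (log2 change 10.95 ± 0.29, SE, adjusted p = 1.68e-05) and at least 238-fold that of LT7. These bounds carry the shift, and in unscaled signal they were at least 18.9-fold and 12.1-fold (fitted log2 changes 6.55 and 5.51). A second probe gave 60.3 and 70.4 in ST7 and 2.80 and 2.86 in GFP, but also 61.0 on LT7 replicate 1 against 4.61 on replicate 2, and the remaining probe was above background nowhere.

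Pcdh10, a delta protocadherin that recruits actin regulators to cell contacts, was the only one of the 4 also detected in GFP and LT7. Its signal of 612 and 727 in ST7 stood above the 23.0 to 47.4 of the other lines without overlap, a 558-fold difference from GFP after the shift (log2 change 9.12 ± 0.19, adjusted p = 1.68e-05) and 4.73 on the log2 scale with no scaling. This probe carries the accession of 1 transcript of the gene. The probe of another transcript, NM_001098172, read 43.8 and 34.4 in GFP, 55.4 and 64.7 in LT7, then 15.0 and 6.88 in ST7, where its second array was not above background. As measured, the signals of these probes thus moved in opposite ways, whereas after the shift the latter was higher too (2.46, adjusted p = 0.00255). Whether each probe reads its transcript alone was not tested. Of the other Pcdh10 probes, 1 read above background only on LT7 replicate 1, at 36.9.

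Pcdh17, likewise a delta protocadherin, read 2.96 and 2.93 in GFP, 5.20 and 5.07 in LT7, then 54.0 and 62.6 in ST7. After the shift its ST7 level was at least 90.9-fold that of GFP (8.70 ± 0.20, adjusted p = 1.68e-05) and at least 54.2-fold that of LT7, and in unscaled signal at least 4.31-fold and 2.75-fold (log2 changes 4.30 and 3.50). The ST7 arrays alone carried a signal above background.

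Cdh4, R-cadherin of the retina, was the type I cadherin detected in ST7. Its brightest probe, not printed here, read 85.5 and 69.7 in ST7, against 2.74 and 2.89 in GFP and 7.21 and 4.54 in LT7. After the shift this was at least 121-fold the GFP level (9.18 ± 0.30, adjusted p = 1.68e-05) and at least 72.1-fold that of LT7, and unscaled at least 5.72-fold and 3.66-fold (log2 changes 4.78 and 3.75). The first probe printed above gave 37.2 and 40.7 in ST7 and at most 5.02 elsewhere, so 2 of the 3 Cdh4 probes were above background in ST7, and the probe with the calcium codons was not. Cdh24, a type II cadherin, read 18.8 and 30.5 in ST7 and 4.43 to 12.3 elsewhere, just past the limit of detection. After the shift it was at least 37.4-fold the GFP level (6.31 ± 0.66, adjusted p = 0.000304), but unscaled the bound was 1.77-fold, and the change missed the threshold with no scaling (1.91, adjusted p = 0.0644) and with the spike-in RNAs (2.08, adjusted p = 0.592).

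The 3 delta protocadherins that were higher in ST7 under all 5 scalings have RefSeq starts that can be set side by side, so the 250 bases before the first listed start (GRCm38.p6) are shown with each CG in capitals. Promoters were counted for 28 members, and none was given for Cdh4. Members on the chromosome of Cdh2 were left out of the 28, whereas promoters of that chromosome stayed in the count of all promoters. CG pairs numbered 18 in Pcdh9, 22 in Pcdh10 and 21 in Pcdh17, against a median of 6 over 27025 promoters. The median was 18 over the 13 members detected in a line, which include these 3 genes, and 6 over the 11 detected on no array. The E-box CAGGTG or CACCTG, a motif read by Snail and Zeb repressors and counted on both strands, was in none of these 3 windows, in 4 of the 28 members (14.3%) and in 17.1% of all promoters of this length.
Pcdh9 (chr14:93890680-93890929, minus strand): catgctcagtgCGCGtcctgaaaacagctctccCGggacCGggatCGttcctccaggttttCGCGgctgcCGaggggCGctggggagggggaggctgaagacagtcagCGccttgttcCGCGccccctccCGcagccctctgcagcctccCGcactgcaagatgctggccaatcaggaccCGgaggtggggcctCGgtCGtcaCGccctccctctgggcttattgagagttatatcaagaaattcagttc
Pcdh10 (chr3:45378148-45378397, plus strand): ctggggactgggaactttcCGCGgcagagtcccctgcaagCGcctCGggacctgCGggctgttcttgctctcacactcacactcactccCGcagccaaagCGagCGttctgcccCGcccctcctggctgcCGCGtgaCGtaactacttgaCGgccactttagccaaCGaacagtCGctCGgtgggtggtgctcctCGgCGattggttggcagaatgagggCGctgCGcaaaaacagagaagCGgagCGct
Pcdh17 (chr14:84443313-84443562, plus strand): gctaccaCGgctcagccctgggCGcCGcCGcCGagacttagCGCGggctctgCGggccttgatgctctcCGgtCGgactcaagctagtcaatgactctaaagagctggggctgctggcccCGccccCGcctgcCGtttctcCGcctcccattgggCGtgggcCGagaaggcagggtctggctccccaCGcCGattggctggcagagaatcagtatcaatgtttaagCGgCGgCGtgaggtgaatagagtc

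The mesenchymal classical cadherins were at background in ST7. Cdh11, the cadherin of bone-forming and other mesenchymal cells, read 2799 and 2823 in GFP and 1822 on LT7 replicate 2, where the spot of replicate 1 was an outlier and was left out, and 2.87 and 3.34 in ST7. Its other probes read 765 to 905 in GFP, 1009 to 1526 in LT7 and 2.81 to 3.22 in ST7, and so separated ST7 from both other lines without overlap. Cdh11 fell at least 9.05-fold against GFP (log2 change -5.43 ± 0.23, adjusted p = 3.76e-05), under all 5 scalings.

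N-cadherin (Cdh2) read 113 and 173 in GFP and 183 and 112 in LT7, which overlapped, and 2.81 and 3.16 in ST7, which was under the detection limit. Against GFP it fell by a fitted log2 value of 1.16 ± 0.38 (adjusted p = 0.0296). The detection limit of the ST7 arrays, placed on the shifted scale, lay above the GFP level, so no fold can be given, and the call missed the threshold without GFP replicate 2 (adjusted p = 0.118) and without ST7 replicate 1 or 2 (0.0908 and 0.0723). With normexp background correction the change was positive (0.62).

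E-cadherin (Cdh1) was well above background on no array, with signals of 3.0 and 3.0 in GFP, 4.6 and 5.0 in LT7, then 3.0 and 3.5 in ST7. No line therefore showed a detectable Cdh1 transcript at the sensitivity of this probe. Cdh20, a type II cadherin of the nervous system, read 30.4 and 40.9 in GFP, 22.8 and 33.9 in LT7, then 10.2 and 8.58 in ST7, below detection. After the shift Cdh1 and Cdh20 were both called higher in ST7 than GFP, although neither was detected there. Cdh18 read 76.7 on LT7 replicate 1 and at most 4.61 on every other array, so its LT7 replicates differed from each other by more than GFP and ST7 did.

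**Figure D3:**
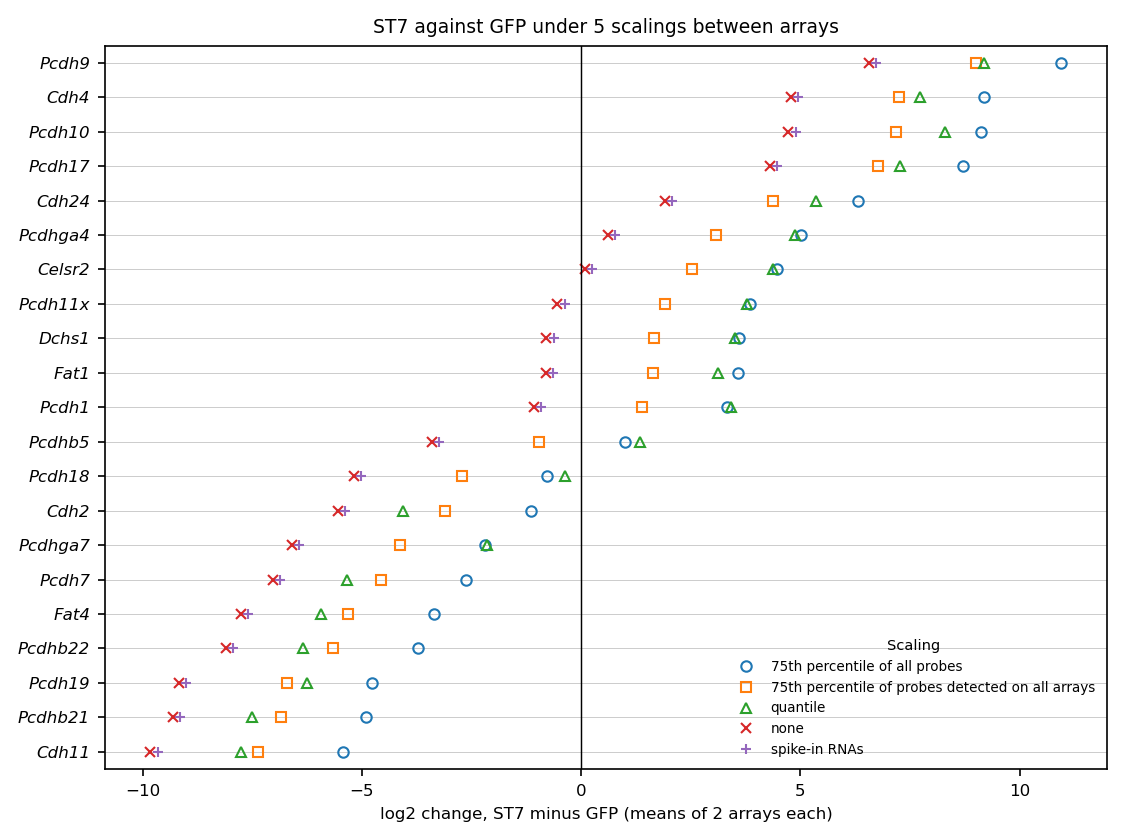
log2 change of ST7 against GFP (difference of the means of 2 arrays each) for the members named for this comparison, under 5 scalings between arrays. Pcdh9, Cdh4, Pcdh10 and Pcdh17 stay at 4.30 or above under each, Cdh11 and Pcdh19 stay below -4.7, and Pcdh11x, Dchs1, Fat1, Pcdh1 and Pcdhb5 cross 0.

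Other delta protocadherins went the opposite way from Pcdh9, Pcdh10 and Pcdh17. Pcdh19, which partners N-cadherin in adhesion, was among the brightest members of GFP and LT7 and read 9.33 and 3.24 in ST7, at least 10.3-fold lower than GFP (-4.78 ± 0.54, adjusted p = 0.000426). Pcdh7 read 390 and 388 in GFP, 611 and 331 in LT7, then 2.84 and 3.14 in ST7, at least 1.25-fold lower (-2.63 ± 0.31, adjusted p = 0.000533), a call lost with the mean over its probes (-0.83, adjusted p = 0.0543). Pcdh18 read 1415 and 1276 in GFP, 1906 and 1909 in LT7, then 43.9 and 31.1 in ST7, where it was still detected. After the shift Pcdh18 was 1.72-fold lower in ST7 (-0.79 ± 0.26, adjusted p = 0.0311), a call lost with quantile normalization (-0.38) and without GFP replicate 1, GFP replicate 2 or ST7 replicate 2 (adjusted p 0.0777, 0.105 and 0.167).

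Pcdh1 and Pcdh11x were detected in all lines, and their direction turned with the scaling. Pcdh1, a protocadherin of epithelia, read 444 and 426 in GFP, 388 and 427 in LT7, then 220 and 194 in ST7, which is lower as measured (log2 change -1.08 unscaled, -0.91 with spike-ins) and higher after the shift (3.32 ± 0.22, adjusted p = 4.9e-05). Pcdh11x, which is X-linked, read 56.0 and 53.8 in GFP, 63.0 and 91.0 in LT7, then 37.8 and 37.7 in ST7, or -0.54 unscaled, -0.38 with spike-ins and 3.86 ± 0.28 after the shift. The ST7 arrays were lowest for both genes in signal, and the array percentile fell by more than they did.

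The giant cadherins behaved unlike one another. Fat4 was lost in ST7, with 2.83 and 3.25 on its first and 2.88 and 3.14 on its second probe, at least 2.13-fold lower than GFP (-3.37 ± 0.25, adjusted p = 7.44e-05) under all 5 scalings. Its binding partner Dchs1 remained detected, reading 38.8 and 74.8 in GFP, 37.9 and 56.4 in LT7, then 30.5 and 31.7 in ST7. That was -0.79 unscaled, -0.63 with spike-ins and 3.61 ± 0.46 after the shift (adjusted p = 0.000722). Fat1, which binds actin-polymerising proteins at cell edges, read 2504 and 2820 in GFP, 3747 and 2848 in LT7, then 1465 and 1561 in ST7. Fat1 was -0.81 unscaled, -0.65 with spike-ins and 3.59 ± 0.24 after the shift (adjusted p = 5.22e-05). Its second probe read 47.8 to 51.6 in GFP and LT7, and 22.6 and 14.9 in ST7, the latter not above background. Fat2 and Fat3 were above background on no array.

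The Celsr genes encode cadherins with a receptor-like membrane domain that set planar polarity. Celsr2 held its signal on all arrays, at 41.8 and 47.1 in GFP, 41.6 and 40.6 in LT7, then 47.2 and 46.4 in ST7. Unscaled this was 0.08 on the log2 scale, and after the shift 4.48 ± 0.23 (adjusted p = 1.85e-05). Of its other probes, 1 read 20.0 and 31.6 in GFP against 46.8 and 42.1 in ST7, and another at most 5.32 in GFP against 49.0 and 34.3. Celsr1 read 31.6 and 17.3 in GFP, 33.3 and 28.9 in LT7, then 3.08 and 3.56 in ST7, and Celsr3 19.5 and 17.5, 28.6 and 15.9, then 10.9 and 11.5, neither of them above background in ST7. After the shift both were nonetheless called higher in ST7 than GFP (1.58 and 3.67, adjusted p = 0.0025 and 0.000104 by limma). Unscaled they were lower (-2.82 and -0.72).

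Of the 23 clustered protocadherins detected in both GFP and LT7, 19 were above background on no ST7 array, Pcdhb18 was so on 1, and Pcdhga7, Pcdhb5 and Pcdhga4 were detected. Pcdha6 was counted among the 19 on a probe that matches several alpha transcripts. Its second probe differed, being well above background on both GFP and both ST7 arrays and on no LT7 array. The probe named Pcdhga7 matches several transcripts of the gamma cluster, which share constant exons, and its neighbours cannot be told apart on it. It was the brightest member on the GFP and LT7 arrays, at 10555 and 9931 in GFP and 10334 and 9185 in LT7, and read 102 and 110 in ST7. It was 4.58-fold lower in ST7 after the shift (-2.20 ± 0.19, adjusted p = 0.000147), while another probe of that name, at 7533 and 6319 in GFP and 443 and 396 in ST7, did not pass (0.36, adjusted p = 0.141), and the mean over all its probes was higher in ST7 (1.60).

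Pcdhb21 and Pcdhb22, single-exon genes of the beta cluster, were the next brightest. Pcdhb21 read 2133 and 1684 in GFP, 2392 and 2242 in LT7, then 2.80 and 3.19 in ST7, at least 6.10-fold lower than GFP (-4.91 ± 0.19, adjusted p = 1.68e-05). Pcdhb22 read 807 and 829, 972 and 978, then 2.82 and 3.10, at least 2.63-fold lower (-3.71 ± 0.21, adjusted p = 2.57e-05). Neither gene had an ST7 array within reach of the other lines.

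The other clustered genes still detected in ST7 were Pcdhb5 and Pcdhga4. Pcdhb5 read 561 and 429 in GFP, 408 and 518 in LT7, then 47.4 and 44.8 in ST7, 0.99 ± 0.24 higher after the shift (adjusted p = 0.0102) and lower as measured (-3.41). Without ST7 replicate 1 its adjusted p was 0.0542, and its second probe, at 55.8 to 69.5 in GFP and LT7, was not above background in ST7. Pcdhga4 read 40.3 and 30.6 in GFP, 36.9 and 29.8 in LT7, then 50.6 and 56.7 in ST7, above the other lines without overlap. Its log2 change was 5.01 ± 0.20 after the shift (adjusted p = 1.68e-05) and 0.61 unscaled, where it missed the threshold (adjusted p = 0.0971).

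**Figure D4:**
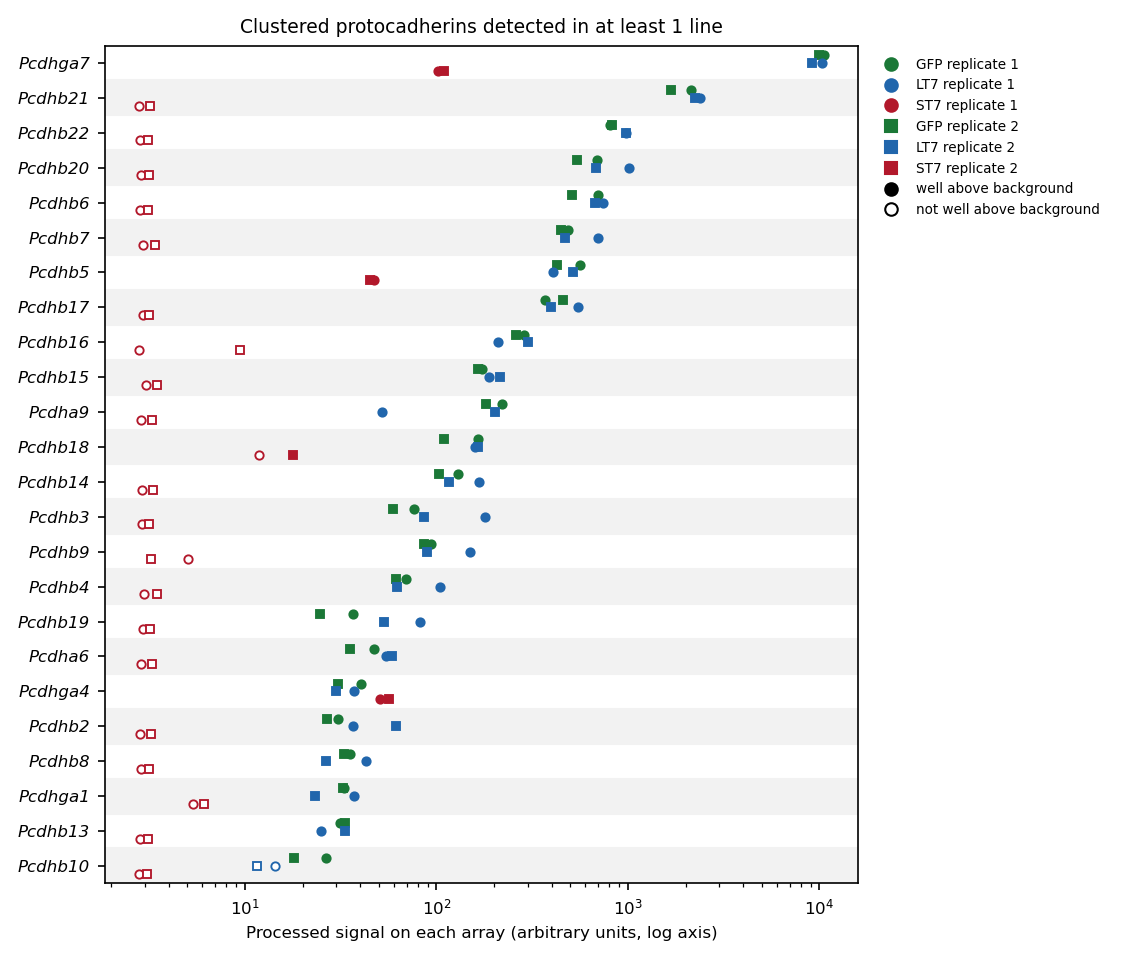
Processed signal of each array (log axis) for the 24 clustered protocadherins detected in at least 1 line, ordered by their highest line mean. Filled marks are well above background; in ST7 they remain for Pcdhga7, Pcdhb5 and Pcdhga4, and for Pcdhb18 on replicate 2.

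Between GFP and LT7 no clustered gene passed the test. Most of those detected in both lines had both LT7 arrays above both GFP arrays after the shift, against 28.2% of such coding names. The others overlapped. Pcdhb10, detected in GFP and on no LT7 array, read 26.4 and 18.0 in GFP and 14.4 and 11.5 in LT7. Its log2 change was -0.66 (adjusted p = 0.125 by limma), and the LT7 arrays had the higher limit of detection. Pcdhb19, singled out after its values were seen, had the largest log2 change among those detected in both, reading 36.9 and 24.7 in GFP and 82.4 and 53.4 in LT7 (1.24 ± 0.27, adjusted p = 0.102), and it was -0.85 with the spike-in scaling. Pcdha9, on a probe that matches several alpha transcripts, read 219 and 181 in GFP and 51.8 and 204 in LT7. Its LT7 replicates lay further apart than the lines. Pcdhga9 read 648 on LT7 replicate 2 and at most 6.21 elsewhere. Pcdha4, which the study had placed among its adhesion genes, was above background on no array.

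Of the catenins and cadherin-bound adaptors, 13 of 16 were detected in GFP, 13 in LT7, then 3 in ST7 (57.3, 50.9 and 22.6% of coding names), summing to a signal of 46678 to 52033 in GFP, 53536 to 70822 in LT7 and 550 to 568 in ST7. No catenin or adaptor passed the test in LT7. In ST7 9 of 16 fell against GFP, 4 were higher, of which Pkp4 alone was detected on both arrays and was lower unscaled (-0.89), and 3 did not pass, where 28.6% of coding names were lower and 63.4% higher. Their median log2 change of -1.71 stood beside -1.58 over the coding names detected in GFP and LT7, and 13 of these 16 genes were detected there.

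The brightest of them, Lima1, an actin-bundling protein at adherens junctions, read 18834 and 18795 in GFP and 12.0 and 14.6 in ST7, at least 60.6-fold lower. Alpha-catenin (Ctnna1), the link from beta-catenin to actin, read 15879 and 12166 in GFP and 3.60 and 7.85 in ST7, at least 44.7-fold lower. Beta-catenin (Ctnnb1), which binds the cadherin tail, read 5307 and 4737 in GFP, 7783 and 5490 in LT7, then 74.1 and 58.5 in ST7, 3.61-fold lower. Ctnnal1, a relative of alpha-catenin, was at least 8.67-fold lower, from 2747 and 2640 to 2.84 and 3.16. The ST7 ranges of these 4 lay below GFP and LT7 without overlap, with adjusted p of at most 0.00103 by limma.

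The planar polarity partners of Fat, Dachsous and Celsr act beside them at the cell border. Of 12 genes, 12 were detected in GFP, 11 in LT7 and 5 in ST7, against the same shares of coding names. None passed in LT7, and in ST7 5 were higher than GFP, 4 of them detected (63.4 and 18.0% of coding names), and 4 lower (28.6%). Scrib, a polarity scaffold, read 12092 and 11391 in GFP, 14238 and 12741 in LT7, then 20913 and 20733 in ST7, which is 0.83 higher on the log2 scale even unscaled. Vangl1, a partner of Celsr at cell borders, read 228 and 171, 295 and 320, then 1331 and 1162 (2.65 unscaled). Dvl1, a cytoplasmic effector, read 2280 and 1685 in GFP and 2.81 and 3.15 in ST7, at least 6.31-fold lower, and the receptor-like Ptk7 read 872 and 824 in GFP and 80.3 and 70.3 in ST7, with an adjusted p of 0.0711.

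**Figure D5:**
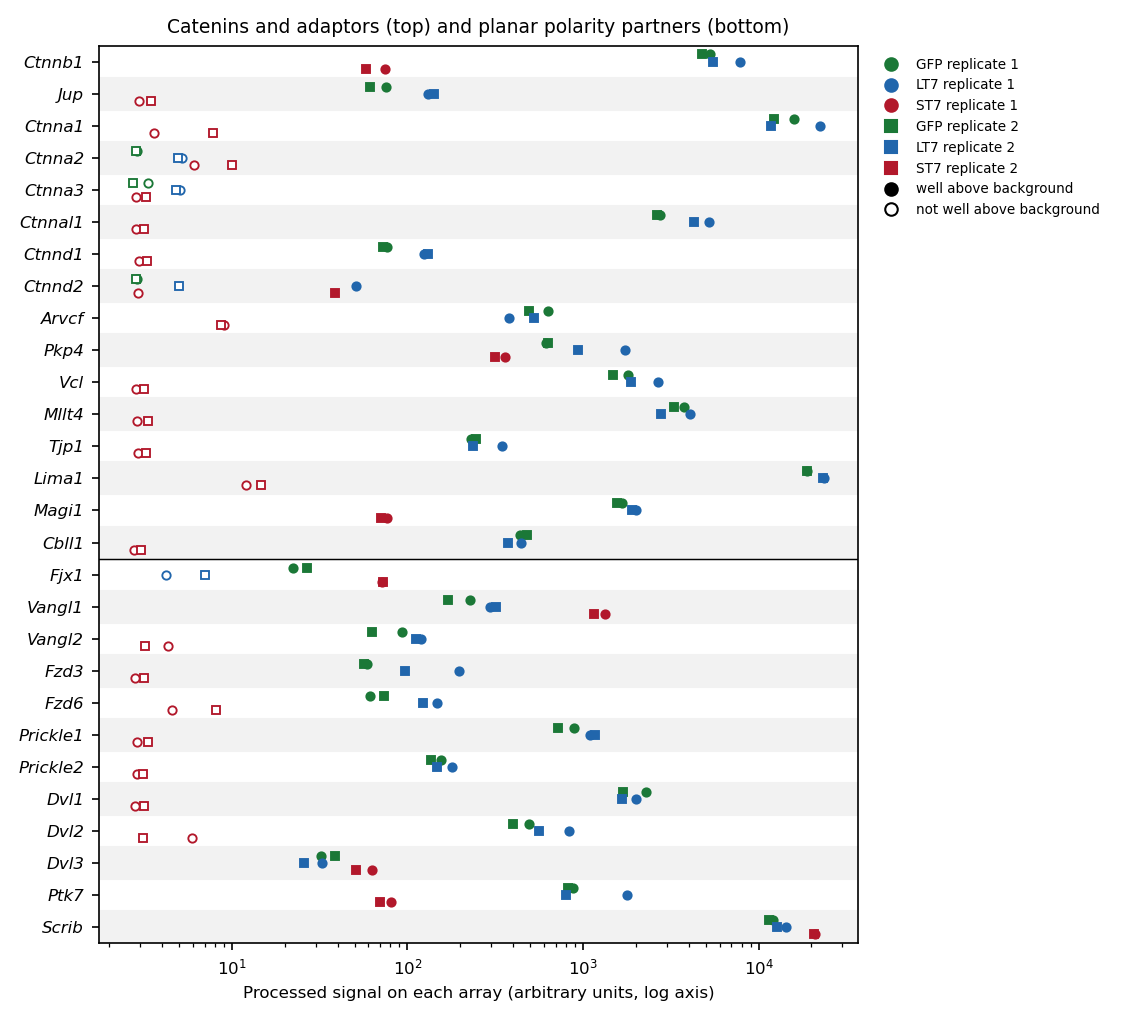
Processed signal of each array (log axis) for 16 catenins and cadherin-bound adaptors and 12 planar polarity partners, separated by a line. In ST7 3 of the upper genes and 5 of the lower genes are filled, that is well above background, on both arrays.

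Markers of cell types were read on the same arrays. All 10 fibroblast markers were detected in GFP and LT7 and 4 in ST7, where 9 fell and vimentin was higher after the shift and lower unscaled (-1.92), and their summed signal was 331579 to 338608 in GFP, 358788 to 375163 in LT7 and 15061 to 16601 in ST7, most of it vimentin (14612 and 16192). Col1a1, Col1a2 and S100a4 were saturated in GFP and LT7. Epithelial markers numbered 2, 1 and 3 of 10 detected, with a summed signal of 123 to 214 in GFP, 150 to 195 in LT7 and 1938 to 2048 in ST7, led by Krt18 at 1881 and 1755. Epcam read 86.7 and 94.0 in ST7 and at most 5.38 elsewhere, and Cldn3 44.5 and 39.1 against 38.7 and 32.3 in GFP. Krt8, the usual partner of Krt18, was lower in signal, at 123 and 62.2 in GFP, 108 and 38.3 in LT7, then 15.3 and 5.82 in ST7. Its log2 change was -3.21 unscaled and 1.18 after the shift, where it did not pass (adjusted p = 0.155 by limma). Krt19, Cldn4, Cldn6, Cldn7, Ocln and Esrp1 were on no ST7 array above background. After the shift 9 of the 10 epithelial markers were called higher than GFP (63.4% of coding names) and 0 lower (28.6%). Of the 9, 3 were detected in ST7 (18.0%). Neural markers numbered 4, 3 and 5 of 7 (3114 to 3386, 5021 to 8612 and 1335 to 1397 in sum), with Sox2 at 71.7 and 122 in ST7 and at most 5.22 elsewhere. The signals of Nes, Ncam1 and Tubb3 were lower in ST7, by unscaled log2 changes of -3.41, -1.27 and -0.78, although after the shift they were called higher.

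Of the endothelial markers 0 of 6 were detected in any line (summed signal 17.2 to 29.0 over all arrays), and of the skeletal muscle markers 0 of 5 (15.8 to 86.7). Of the blood markers 1, 2 and 1 of 5 were detected (137 to 248), and they differed in direction. Coro1a read 20.3 and 12.9 in GFP, 39.5 and 41.6 in LT7, then 193 and 180 in ST7, or 3.52 higher than GFP on the log2 scale unscaled. Csf1r read 129 and 111 in GFP, 133 and 81.1 in LT7, then 6.20 and 8.42 in ST7, below detection. Laptm5 was above background on ST7 replicate 2 alone, at 42.4, and Ptprc read at most 5.15. The part of these markers in the cadherin results was not tested.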

How the data were processed

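RNA from GFP, LT7 and ST7 cells, 2 replicates each, was hybridized to 6 arrays. The deposited scanner files hold for each spot an intensity that the authors' Feature Extraction software (10.5.1.1) had corrected for background, and the deposited series matrix holds log2 values that equal the percentile-shifted ones within 0.01 after an offset of at most 0.0246 per array, except for 5 to 13 probes per array. Spots flagged as outliers were dropped and replicate spots of 1 probe averaged, after which each array's log2 values were lowered by their 75th percentile. The test was limma 3.58.1 (R 4.3.3) on all 6 arrays, without a block, with Benjamini-Hochberg adjustment over all probes. It was tested on simulated data before use.

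Where a line had no array well above background, a fold is a lower bound. It sets the mean of the brighter line against, per array, the higher of the probe's signal and the lowest signal of any probe well above background, after the shift. Probes of a gene were never set against one another in level. Precision is limited by the number of arrays. Because the shift was much larger on ST7 arrays, bounds there are given unscaled too.

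Members and gene lists were chosen with earlier results of these data known. Named were every member outside the clusters detected in a line, the study's adhesion members, the 3 brightest clustered genes (the other clustered genes by counts, with those named singled out after their values were seen), and up to 4 of the brightest genes of each list. Of the 75 names, 72 accessions were found in a GRCm38.p6 table, 70 under the same symbol, and array positions were not used. Promoters are from RefSeq. The alternatives were 4 scalings, normexp correction (offset 50), the series matrix, a filter on dim probes, outlier spots kept, a replicate block, the compared lines alone, the study's fold rule, the mean over a gene's probes and each array left out. The rules on detection of the higher line and on all 5 scalings, and the unscaled bounds, were added after seeing the data.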

Additional observations from a re-analysis of the deposited data

How the results depend on the processing

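With 2 arrays per line, 1 of 6 in its own scan, and ST7 arrays that were dim throughout, the counts moved with the scaling and with the handling of dim probes. The number of members higher in ST7 than GFP, 53, was 6 with no scaling, 24 with quantile normalization, 4 with the spike-in RNAs, 23 after a filter on dim probes, 12 when detection in ST7 was required and 4 under all 5 scalings, and the number lower, 15, was 35 with no scaling, 26 with the percentile over probes detected on all arrays and 23 with quantile normalization. Against LT7 the 50 higher were 5, 23 and 4 under those scalings, 21 after the filter, 12 with detection required and 4 under all 5 scalings, and the 16 lower were 47 with no scaling, 27 with the percentile over detected probes, 26 with quantile normalization, 10 with the spike-in RNAs and 9 under all 5 scalings. Leaving out 1 array gave 48 to 54 and 13 to 16 against GFP, and 46 to 50 and 14 to 16 against LT7. In LT7 the 0 members higher became 1 with normexp correction, 6 by the study's fold rule and 0 to 1 when 1 array was left out (1 without LT7 replicate 1 or 2), and the 1 lower became 0 with no scaling, quantile normalization or spike-in RNAs and 0 to 1 when 1 array was left out.

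Named changes that reversed against GFP did so mostly with the spike-in RNAs: in LT7 Fat4 -0.82, Pcdh10 -1.10, Pcdh19 -1.11 and Pcdhb19 -0.85, and in ST7 Fat1 -0.65, Dchs1 -0.63, Pcdh1 -0.91, Pcdh11x -0.38 and Pcdhb5 -3.25. With no scaling Fat1 was -0.81, Dchs1 -0.79, Pcdh1 -1.08, Pcdh11x -0.54 and Pcdhb5 -3.41, and Pcdhb5 was -0.95 with the percentile over detected probes. Cdh2 was 0.62 with normexp, and Pcdhga7 1.60 as a mean over its probes. The cause was not tested. The named changes of Pcdh9, Pcdh10, Pcdh17 and Cdh4 in ST7 against either line, and of Cdh11, Fat4 and Pcdh19 in ST7 against GFP, kept their direction and call under every alternative run.

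Replicate numbers did not pair the samples: deviations of same-numbered arrays correlated at 0.09 (GFP and LT7), 0.33 (GFP and ST7) and -0.03 (LT7 and ST7) over 11081 probes. With the replicate number as a block, the members lower in LT7 went from 1 to 0 (Cdh22, adjusted p 0.104), Cdh2 in ST7 missed the threshold (0.0588), and no other named call changed.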
